A study of Mus musculus with 2 samples.

Results

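The cells described here are fibroblasts of the atherosclerotic mouse aorta that carried transcripts of C7, Dpep1, Inmt, Gria4 or Entpd2. They were chosen by measured counts, by a rule with 4 parts. A cell barcode had to hold at least 300 genes with a UMI (unique molecular identifier, 1 counted RNA molecule) and at most 10% mitochondrial UMIs. It had to carry a UMI of at least 3 of 8 fibroblast genes (Pdgfra, Dcn, Serpinf1, Clec3b, Dpt, Mfap5, Scara5 and Cygb), which are called the fibroblast gate below. It needed at least 1 of the 5 genes C7, Dpep1, Inmt, Gria4 and Entpd2, and more of them than of Saa3, Sfrp4, Ccl19, Chl1 and Fbln1. At most 2 of 8 endothelial genes (Egfl7, Esam, Ecscr, Cdh5, Cldn5, Ptprb, Tie1 and Cd93) were allowed. The rule found 910 members among 68463 barcodes that passed the filters. The levels of these 26 rule genes follow from the choice and are given as description only.

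The data came from single-cell RNA-seq of aortic cells enriched with beads against CD31, an endothelial surface protein. Both groups were ApoE-deficient mice (ApoE-/-/C57BL/6) on a Western diet, a combination that produces atherosclerosis. The label of the group called WT below names no deletion, and EC-iCD45KO mice had a tamoxifen-inducible endothelial deletion of CD45, the phosphatase encoded by Ptprc. The Cre driver, the age of the mice and the number of animals behind a library are not given in the sources used here. Each group had 1 library, so no difference between them could be tested against replicates, and the groups cannot be told apart from the libraries. All intervals below are exact 95% intervals that cover counting error only and hold for 1 gene at a time.

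Fibroblasts of the vessel wall lie mostly in the adventitia, the outer coat, where they make collagens, proteoglycans and elastic fibre proteins and produce complement factors and chemokines. Fibroblasts are not 1 uniform population: some express Pi16 and Dpp4, some supply Cxcl12 and other niche factors, and some turn on acute-phase, protease and chemokine genes in inflamed tissue. Position in the wall was not measured here, so "adventitial" is a name for the cells and not an observation. In the rule, C7 encodes a component of the complement membrane attack complex, Dpep1 a membrane-bound dipeptidase, Inmt an indolethylamine methyltransferase, Gria4 a glutamate receptor subunit and Entpd2 an enzyme that splits extracellular nucleotides.

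The promoters of the leading genes are shown because C7, Dpep1 and Inmt choose the members and because Sult5a1, a sulfotransferase gene outside the rule, lies 27926 bases from Dpep1 on chromosome 8 in the opposite orientation and was high in the same cells. Each window holds 250 bases before and 50 bases after the RefSeq transcription start on GRCm38.p6, written 5′ to 3′ on the strand of the gene, at chr15:5063724-5064023 (C7, minus strand), chr6:55174941-55175240 (Inmt, minus strand), chr8:123185985-123186284 (Dpep1, plus strand) and chr8:123158231-123158530 (Sult5a1, minus strand). Capitals mark matches to TATAAA on either strand, the TATA box letters.
C7: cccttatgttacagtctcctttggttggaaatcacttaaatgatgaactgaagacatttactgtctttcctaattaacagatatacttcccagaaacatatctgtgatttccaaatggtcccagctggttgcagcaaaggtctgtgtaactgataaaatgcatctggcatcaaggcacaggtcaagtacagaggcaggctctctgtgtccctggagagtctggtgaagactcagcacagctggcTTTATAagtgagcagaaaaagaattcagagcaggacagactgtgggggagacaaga
Inmt: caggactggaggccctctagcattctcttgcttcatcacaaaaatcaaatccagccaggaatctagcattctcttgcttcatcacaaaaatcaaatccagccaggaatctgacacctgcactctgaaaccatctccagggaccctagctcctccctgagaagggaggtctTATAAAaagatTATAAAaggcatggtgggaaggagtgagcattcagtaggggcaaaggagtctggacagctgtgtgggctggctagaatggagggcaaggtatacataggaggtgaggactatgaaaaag
Dpep1: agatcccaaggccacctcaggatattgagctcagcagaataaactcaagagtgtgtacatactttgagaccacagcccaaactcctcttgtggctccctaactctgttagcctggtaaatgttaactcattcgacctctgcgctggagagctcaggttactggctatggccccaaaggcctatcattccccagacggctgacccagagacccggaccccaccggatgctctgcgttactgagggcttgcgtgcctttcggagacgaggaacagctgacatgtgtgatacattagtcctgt
Sult5a1: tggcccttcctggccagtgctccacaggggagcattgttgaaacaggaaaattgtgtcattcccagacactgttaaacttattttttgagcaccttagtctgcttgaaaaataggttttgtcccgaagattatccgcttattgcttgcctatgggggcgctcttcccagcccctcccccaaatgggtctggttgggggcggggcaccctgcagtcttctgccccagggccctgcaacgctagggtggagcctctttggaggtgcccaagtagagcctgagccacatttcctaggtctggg
C7 had 1 match and Inmt 2, and the windows of Dpep1 and Sult5a1 had none. The letters occur in 13.6% of the 32851 promoters of the table. The Sult5a1 window also held 1 match to GGGCGG, the GC box letters, which occur in 35.7% of them. A match describes the letters of a window and nothing about binding.

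Members numbered 562 of 39503 WT barcodes, a share of 1.42% with an exact (Clopper-Pearson) interval from 1.31% to 1.54%. The EC-iCD45KO library held 348 among 28960, or 1.20% (interval 1.08% to 1.33%). Among the barcodes of the fibroblast gate 28.2% of the 1994 in WT were members (26.2% to 30.2%), against 16.3% of the 2136 in EC-iCD45KO (14.7% to 17.9%). The log2 ratio of EC-iCD45KO over WT was -0.79 for the share of the gate and -0.24 for the share of all barcodes. The rule counts both gene sets. Of the gate, 69.6% in WT and 81.2% in EC-iCD45KO had a UMI of Saa3, Sfrp4, Ccl19, Chl1 or Fbln1, against 58.9% and 55.1% for the C7 set. Which set differed depended on the barcodes counted. With at least 4 gate genes the shares were 83.2% and 90.5% for the Saa3 set and 76.1% and 67.8% for the C7 set, and without barcodes above 5000 UMIs 67.2% and 78.6%, and 61.5% and 51.8%. In the 140 and 199 gate barcodes with fewer than 2 genes of every other-cell list, the Saa3 set stood at 85.7% and 85.9% and the C7 set at 82.9% and 67.8%. Gate barcodes with more of the second set than of the first, called Saa3 and Sfrp4 fibroblasts here, numbered 744 in WT and 1312 in EC-iCD45KO. CD31 selection stands before all of these shares, and its effect on them was not tested.

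The members had a median of 1939 UMIs in WT and 1718 in EC-iCD45KO, between that of the Saa3 and Sfrp4 fibroblasts (2293 and 2089) and that of all barcodes (1552 and 1438), over a range from 512 to 23388, and the 10 deepest members held 9.98% of the WT and 16.9% of the EC-iCD45KO UMIs. In all, 1563731 and 1022016 UMIs stand behind the levels below, given as CPM (the UMIs of a gene per 1000000 UMIs summed over the members). The libraries shared 340 barcode sequences. None was a member in both, while 5 WT and 3 EC-iCD45KO members had a sequence also found in the other library.

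The fibroblast name was checked against markers. Of 15 pan-fibroblast genes that the rule did not use, 13 were called higher in members than in all other barcodes and none lower, with a median log2 ratio of 1.89 in WT and 2.04 in EC-iCD45KO. Among them were Lum, a small collagen-binding proteoglycan (1837 and 2551 CPM), Col1a1, a chain of type I collagen (753.3 and 884.5 CPM), and Cd34 (145.2 and 176.1 CPM). "Called" means at least 2-fold with a counting interval clear of 0, in the same direction in both libraries where cells are compared within libraries. Against all other barcodes 921 of 11126 genes (8.28%) were called higher and 463 (4.16%) lower. Of 7 pericyte genes, 4 were called higher as well, and that list had a larger median ratio than the fibroblast genes, 2.21 and 2.46. The 4 were Abcc9 and Kcnj8, the subunits of a potassium channel, Ndufa4l2 and Vtn, while the pericyte gene Rgs5 had ratios of -1.15 and -0.85, and the summed list stood at 375.4 and 605.7 CPM against 173.4 and 404.9 CPM. No gate for pericytes was applied, and a difference of the members from pericytes was not tested. Of 10 endothelial genes 7 were called lower and none higher, with a summed level of 353.6 and 315.1 CPM against 589.4 and 668.9 CPM. Vwf was seen in 12 and 9 members and Kdr in 7 and 11. The rule limits endothelial genes, so low endothelial RNA follows from the choice and is no check of the name. Of 4 Schwann genes 1 was called higher and 1 lower, at 170.7 and 130.1 CPM summed against 148.4 and 151.4 CPM, and at least 2 genes of that list were found in 6.23% and 4.31% of members (2.88% and 3.77% of all barcodes), although Sox10 was in none. The adipocyte genes Plin1, Lep and Retn were in none either. The summed list of 8 adipocyte genes was not lower, at 16.63 and 34.25 CPM against 15.68 and 32.35 CPM in all other barcodes. Markers of smooth muscle and immune cells were common.

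RNA of other cell types was present in most members. UMIs of at least 2 genes of some smooth muscle, macrophage, neutrophil, lymphocyte or Schwann list were found in 498 of 562 WT members (88.6%) and 308 of 348 EC-iCD45KO members (88.5%). The kind differed between libraries: B and plasma cell genes reached that count in 73.7% of WT and 15.2% of EC-iCD45KO members, macrophage genes in 60.7% and 78.7%, and smooth muscle genes in 25.3% and 38.8%. In all other barcodes the summed B and plasma list stood at 25373 CPM in WT and 1774 CPM in EC-iCD45KO, and the macrophage list at 7254 and 17017 CPM. The 64 WT and 40 EC-iCD45KO members below that count in every list, 184683 and 82086 UMIs in all, are called marker-free members below.

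The 5 genes that chose the members overlapped in part. C7 was found in 374 WT and 189 EC-iCD45KO members, at 795.5 and 582.2 CPM. Dpep1 was found in 280 and 206 members at 383.7 and 501.9 CPM, and Entpd2, which overlaps Npdc1 on the genome so that their reads may mix, in 280 and 172 at 328.7 and 281.8 CPM. Gria4 (311.4 and 199.6 CPM) and Inmt (303.1 and 259.3 CPM) were found in 218 and 84 and in 161 and 101 members. Members with exactly 1 of the 5 genes were 30.6% in WT and 31.0% in EC-iCD45KO, and those with all 5 numbered 30 and 13. C7 and Dpep1 were seen together in 36.5% and 32.5% of members, which is 205 of the 280 WT members with Dpep1 and 113 of the 206 in EC-iCD45KO. No single gene of the set was found in every member. The genes lie apart in the genome: C7 at chr15:4988762-5063740, Dpep1 at chr8:123186242-123201812, Inmt at chr6:55170626-55175043, Gria4 at chr9:4417896-4796234 and Entpd2 at chr2:25395874-25401321 (mm10).

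Depth limits such shares, so each barcode was also thinned to 1000 UMIs, which left out 77 WT and 64 EC-iCD45KO members. C7 was then detected in 44.7% of WT and 34.2% of EC-iCD45KO members, in 11.5% and 12.1% of Saa3 and Sfrp4 fibroblasts, and in 0.869% and 0.547% of barcodes of the macrophage gate, whose median depths before thinning were 1423 and 1283 UMIs. Dpep1 was detected in 30.9% and 37.7% of members and 0.385% and 0.374% of macrophage barcodes. Macrophages should lack these genes, so their shares are read here as background. That gate admits at most 1 marker of each other gate, so barcodes with more fibroblast RNA were not counted in it, and free RNA itself was not measured. Gsn was detected in 77.5% and 78.5% of members against 14.9% and 15.2% of macrophage barcodes, although the rule did not use it.

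**Figure D1:**
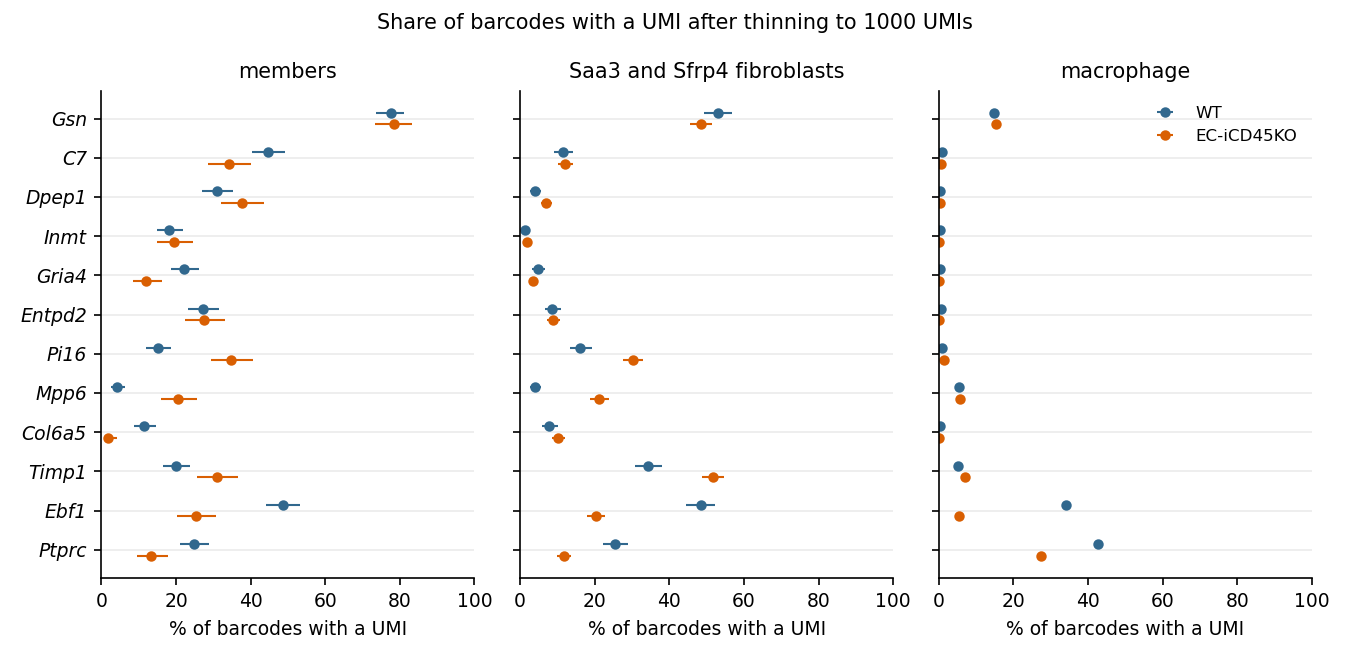
Share of barcodes with a UMI (percent, horizontal axis) after thinning to 1000 UMIs, for 12 genes in members, Saa3 and Sfrp4 fibroblasts and macrophage barcodes of both libraries, with exact 95% intervals. Pi16 and Mpp6 stand higher in EC-iCD45KO in both fibroblast groups (Pi16 in members 15.1% and 34.9%), Col6a5 is lower in members (11.3% and 1.76%) and not in the other fibroblasts, and Ptprc is lower in all 3 groups of barcodes.

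The members were next compared with the Saa3 and Sfrp4 fibroblasts, which passed the same gate. The rule draws this contrast, so the genes below describe the members and support nothing further. Of 10930 genes outside the rule, 100 (0.915%) were called higher in members and 74 (0.677%) lower; with TMM scaling, an edgeR method that centres the bulk of genes, the numbers were 70 and 87. They were 38 and 18 without barcodes above 5000 UMIs, 50 and 116 without the top barcode of each gene, 157 and 134 with at least 2 C7-set genes and 40 and 26 in marker-free members. The genes called higher included Gsn, F3 and 4 of 23 retinoid and xenobiotic enzyme genes. Those called lower included 5 of 20 inflammatory cytokine and chemokine genes, 1 of 16 collagens and 2 of 17 matrix protease and inhibitor genes, a list whose median was -0.17 in WT and 0.08 in EC-iCD45KO.

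Gsn, the actin-severing protein gelsolin (chr2:35256380-35307892), led by level. It stood at 4021 CPM in WT and 3507 CPM in EC-iCD45KO members, against 1058 and 991.3 CPM in Saa3 and Sfrp4 fibroblasts, a log2 ratio of 1.93 and 1.82. F3, which encodes tissue factor, the starter of blood clotting, stood at 221.3 and 283.8 CPM against 52.15 and 56.05, a ratio of 2.08 and 2.34. Both genes were also higher in marker-free members, by 1.34 and 1.77 for Gsn and 1.85 and 1.86 for F3. F3 was detected in 144 and 114 members, and in fewer than 1% of macrophage barcodes (0.372% and 0.734% after thinning).

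Abca8a, a lipid transporter of the ABC family, was higher by 2.24 in WT and 1.99 in EC-iCD45KO (207.8 and 202.5 CPM in members), although in marker-free EC-iCD45KO members the ratio was 0.80. Plcxd3, a phospholipase C family gene, was higher by 2.22 and 2.25, and Sult5a1 by 2.03 and 1.46. Of 23 measured retinoid and xenobiotic enzyme genes, 4 were called higher and none lower, with a list median of 0.57 and 0.33. These were Aldh1a1, which makes retinoic acid (134.9 and 108.6 CPM, ratios of 2.00 and 1.75), Hsd11b1, which reactivates glucocorticoids (177.8 and 195.7 CPM, 1.49 and 2.09), the alcohol dehydrogenase gene Adh1 (1.47 and 1.85) and Aox3, an aldehyde oxidase seen in only 19 and 3 members. Without barcodes above 5000 UMIs the Hsd11b1 ratio in WT was 0.81 and the Adh1 ratio in EC-iCD45KO 0.98. Fmo2, a flavin monooxygenase and the most abundant enzyme of the list, stood at 736.1 and 915.8 CPM with ratios of 0.96 and 1.25, under the 2-fold limit in WT.

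Lsamp, a cell adhesion protein known from neurons, stood at 63.31 and 147.7 CPM in members and at 18.99 and 18.52 CPM in the other fibroblasts. Ntrk2, the receptor for brain-derived neurotrophic factor, was higher by 1.60 and 1.43, the transcription factor Ebf2 by 1.50 and 1.82, and the laminin chain Lama2 by 1.08 and 1.52. None of the 16 collagen and 15 elastic fibre genes was called higher, and of 8 small proteoglycan genes 2 were, Ogn (702.8 and 544.0 CPM, 1.71 and 1.22) and Podn (1.18 and 1.26). Among 20 Wnt and BMP genes the ligands Bmp4 (1.45 and 1.15) and Wnt5a (1.48 and 1.89) were called higher, and the antagonists Frzb (-1.70 and -1.19), Wif1 and Grem1 lower.

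The lower genes were led by Mmp13, a collagenase, at 10.23 and 2.94 CPM in members against 654.1 and 321.5 CPM in Saa3 and Sfrp4 fibroblasts; it was seen in 10 WT and 3 EC-iCD45KO members. Mmp3, a stromelysin, stood at 1189 and 1604 CPM against 3117 and 5087, a ratio of -1.39 and -1.67. Without barcodes above 5000 UMIs the WT ratio of Mmp3 was -0.61. Timp1, an inhibitor of these proteases, was lower as well, with a log2 ratio of -2.06 in WT and -1.38 in EC-iCD45KO (354.3 and 796.5 CPM against 1477 and 2067).

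Hp, the haemoglobin-binding protein haptoglobin, stood at 42.85 and 56.75 CPM against 399.1 and 617.6, and Cxcl14, a chemokine, at 169.5 and 164.4 CPM against 679.7 and 1016. Lcn2, an iron-sequestering acute-phase protein, had a ratio of -4.41 in WT and -1.79 in EC-iCD45KO, where 1 barcode held 170 of the 277 UMIs. Of 20 inflammatory cytokine and chemokine genes, 5 were called lower and none higher, with medians of -0.46 and -0.74. Among the collagens 1 of 16 was called lower, Col3a1 (1123 and 1619 CPM against 2494 and 4524), and of 11 myofibroblast genes Postn and Cthrc1 were called lower.

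**Figure D2:**
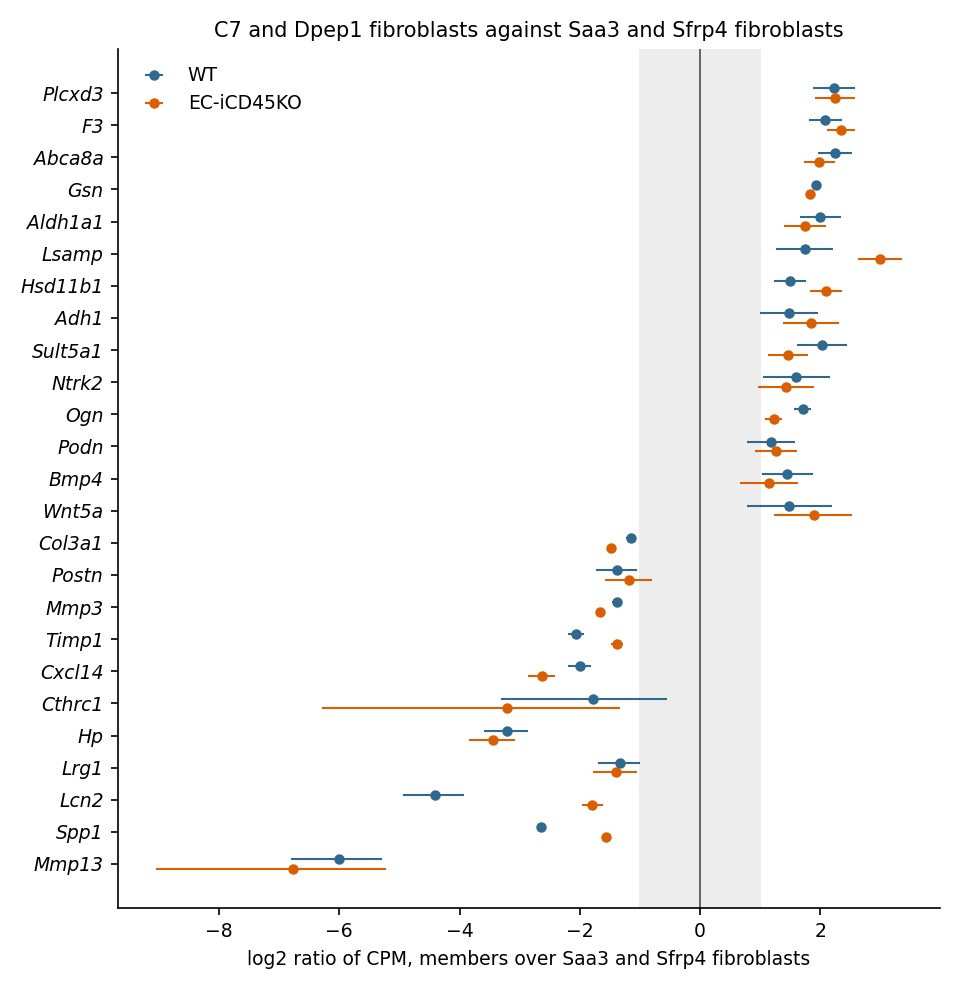
Log2 ratio of CPM in members over Saa3 and Sfrp4 fibroblasts (horizontal axis) for 25 genes outside the rule, WT in blue and EC-iCD45KO in orange, with exact 95% counting intervals and a grey band at 2-fold. F3 and Gsn lie near 2 in both libraries (2.08 and 2.34, 1.93 and 1.82), and Mmp13 lies farthest below 0.

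Among gate barcodes with a gene of either set, the threshold of the rule cut through a gradient. By the number of C7-set genes minus that of the Saa3 set, gate barcodes with equal numbers above 0, just outside the rule (330 in WT, 254 in EC-iCD45KO), had Gsn at 1955 and 2506 CPM. Members just inside, with a difference of 1 (370 and 227), had 3126 and 3071 CPM. Those with a difference of 3 or more (54 and 27) had 5656 and 7080 CPM. F3 followed the same order in these classes, with 133.7, 143.0 and 403.1 CPM in WT and 215.4, 258.1 and 480.6 CPM in EC-iCD45KO. Timp1 ran from 1805 CPM in WT barcodes with a difference of -2 or less to 565.0 CPM at equal numbers and 374.3 CPM just inside. In EC-iCD45KO these levels were 2284, 1408 and 829.8 CPM. Gate barcodes with no gene of either set (358 and 222), also at a difference of 0, lay outside this order. They had Gsn at 621.8 and 720.3 CPM, F3 at 16.71 and 41.08 CPM and Timp1 at 1197 and 1959 CPM. Median depth was 1928 UMIs at equal numbers, 1850 just inside and 2514 in the highest WT class.

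**Figure D3:**
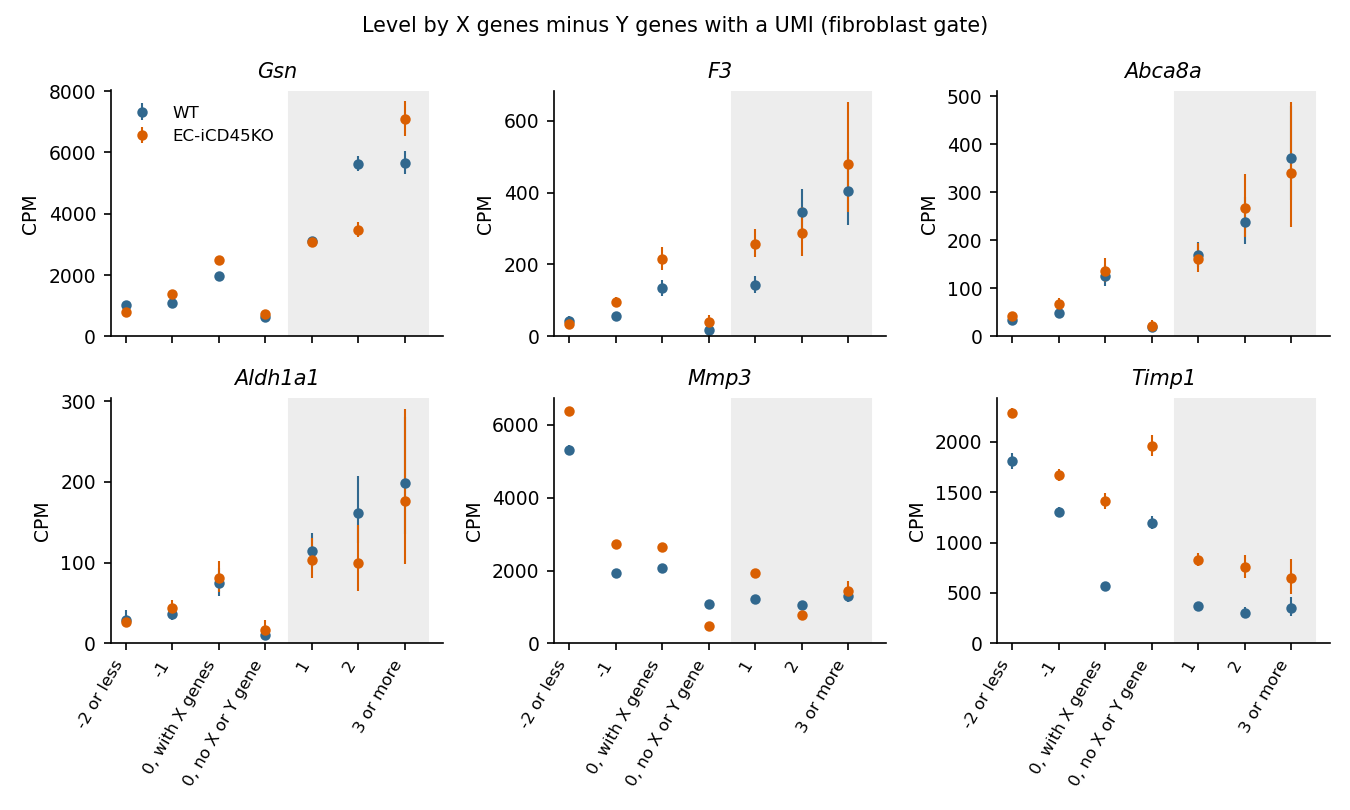
Level in CPM (vertical axis) of Gsn, F3, Abca8a, Aldh1a1, Mmp3 and Timp1 by the number of C7-set genes minus the number of Saa3-set genes with a UMI (horizontal axis), in both libraries, with exact Poisson 95% intervals and members shaded grey. Gsn, F3 and Abca8a are higher on the member side and Timp1 is lower. F3 in WT stands at 133.7 CPM just outside the threshold and 143.0 CPM just inside.

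All other barcodes kept, which include the macrophage, endothelial and smooth muscle gates, were the wider comparison. The 15 genes with the largest ratios, outside the rule and above 50 CPM, included Plcxd3 (log2 4.91 in WT and 4.57 in EC-iCD45KO), Svep1, a large extracellular adhesion protein (4.76 and 4.07), F3 (4.60 and 4.22), Aldh1a1 (4.65 and 4.25) and Ccbe1, a secreted factor of lymphatic growth (4.59 and 3.92). Of 14 complement genes measured 11 were called higher, and of 12 stromal niche genes 9. Against the Saa3 and Sfrp4 fibroblasts 0 of 15 complement and 1 of 15 stromal niche genes were called higher. Of 19 interferon response genes none was called.

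Members with Dpep1 were compared with members without it, as a description of variation within the 910 cells, over genes picked after their values had been seen. They were 280 against 282 in WT and 206 against 142 in EC-iCD45KO, and they were deeper, with median UMIs of 2547 against 1642 in WT. Dpep1 itself was no longer available as a measure. By the rule, members without the splitting gene carry another gene of the C7 set. Ratios of C7-set genes in these splits follow in part from that and are given as description only. Its effect on the ratios of genes outside the rule was not tested. With Dpep1, C7 was higher by 1.06 and 1.10, Inmt by 1.17 and 1.01 and F3 by 1.86 and 1.33 on the log2 scale. Hsd11b1 was higher by 2.02 and 2.70. Gsn stood at 5320 CPM with Dpep1 and 2275 CPM without it in WT, and at 4375 and 2067 CPM in EC-iCD45KO. Genes outside the rule did not all follow this pattern when the members were split by other genes of the set. For Gria4 in WT, C7 was higher by 0.55, F3 by 0.63, Hsd11b1 by 0.94, Plcxd3 by 0.78 and Aldh1a1 by 1.07, whereas Gsn differed by 0.01, Dpep1 by 0.04, Inmt by -0.09 and Abca8a by 0.03. In EC-iCD45KO Gsn differed by 0.50 and Inmt by 1.30 for Gria4. For Entpd2, Gsn differed by 1.46 in WT and 0.66 in EC-iCD45KO, Inmt by 0.63 and -0.50 and C7 by 0.81 and 0.13. With C7 in place of Dpep1, Aldh1a1 was higher by 1.98 and 1.15, and Col6a5 in WT by 2.86.

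Pi16, a secreted peptidase inhibitor that marks a widespread fibroblast state, was present in part of the members (chr17:29317680-29330593). Members with it had more Igfbp5, an insulin-like growth factor binding protein, by 1.77 in WT and 2.07 in EC-iCD45KO, more of the proteoglycan Aspn by 2.15 and 1.72 and more Cd248 by 1.19 and 1.07. Sfrp2, a secreted Wnt modulator, differed by 1.60 in WT and -0.27 in EC-iCD45KO, and Dpp4, with 5 and 15 UMIs, by -0.74 in WT (interval -2.56 to 0.79). They had about the same Ly6a, the stem cell antigen Sca-1, with ratios of 0.08 and 0.22. These members were also deeper, at a median of 3272 UMIs with Pi16 and 1723 without it in WT, and the part of depth in the ratios was not tested.

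Ptprc, the deleted gene, was looked at first in the comparison of libraries, although fibroblasts are not the cells in which it was deleted. It stood at 272.4 CPM in WT members (235 barcodes) and 117.4 CPM in EC-iCD45KO members (74 barcodes), a log2 ratio of -1.21 (-1.52 to -0.92). After thinning it was detected in 24.7% and 13.4% of members, in 42.6% and 27.4% of macrophage barcodes and in 16.2% and 0.765% of endothelial barcodes. In marker-free members it came to 5 UMIs in WT and 4 in EC-iCD45KO. B and T cell RNA moved with it: T and NK genes reached 2 genes in 26.0% of WT and 4.31% of EC-iCD45KO members, and their part in the Ptprc difference was not tested.

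Over the members, 290 of 11167 genes (2.6%) were called higher in EC-iCD45KO and 500 (4.48%) lower, around a median log2 ratio of -0.03 for all genes. Other barcodes of the same libraries shared many of these: 118 of the 290 and 244 of the 500 were also at least 2-fold different in the same direction in all other barcodes, and 85 and 234 in the Saa3 and Sfrp4 fibroblasts. A ratio of the opposite sign, of any size, was found for 63 and 75 of them in the Saa3 and Sfrp4 fibroblasts. In marker-free members only 24 of the 290 and 9 of the 500 were called, from far fewer UMIs.

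Mpp6, which encodes a membrane scaffold protein (chr6:50110241-50198939, overlapping Gsdme, so that reads of the 2 genes may mix), was among the 12 genes with the largest ratio above 0. It stood at 38.37 CPM in WT and 278.9 CPM in EC-iCD45KO members, in 51 and 123 barcodes, a log2 ratio of 2.86 (2.46 to 3.29). The Saa3 and Sfrp4 fibroblasts gave 2.77, smooth muscle barcodes 1.50, all other barcodes 0.73, macrophage barcodes 0.00 and endothelial barcodes -0.54. The share with an Mpp6 UMI went from 3.42% to 9.77% in smooth muscle barcodes. In marker-free members the count went from 5 to 41 UMIs. Both kinds of fibroblast, the smooth muscle barcodes and the marker-free members were therefore higher in EC-iCD45KO.

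Pi16 stood at 346.0 CPM in WT and 723.1 CPM in EC-iCD45KO, a ratio of 1.06 (0.90 to 1.23), with 0.94 in Saa3 and Sfrp4 fibroblasts and 1.12 in marker-free members. The share of members with a Pi16 UMI at 1000 UMIs went from 15.1% to 34.9%, a difference of 19.8 percentage points (13.5 to 26.2), beside 0.931% and 1.40% of macrophage barcodes. Of the 13 genes of the Pi16 and Dpp4 list, Pi16 and the transcription factor Creb5 were called higher and Dpp4 lower (20 and 3 UMIs), with a list median of 0.50, which was 0.53 in all other barcodes and -0.05 in the Saa3 and Sfrp4 fibroblasts. In marker-free members Creb5 came to 5 and 0 UMIs and Dpp4 to 0 and 1. With at least 4 gate genes the Pi16 ratio was 0.98, under the 2-fold limit.

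Secreted and matrix genes higher in EC-iCD45KO members included Rbp4, the retinol carrier (99.12 and 302.3 CPM, 1.61), Timp1 (1.17, with 0.49 in the other fibroblasts) and Tgfbi, a matrix protein induced by TGF-beta (195.0 and 458.9 CPM, 1.23). Of 15 elastic fibre genes Emilin1 (1.09) and Ltbp2 (1.25) were called higher, with a list median of 0.30. Ltbp2 stood at 52.44 and 124.3 CPM in members and at 202.3 and 201.7 CPM in the other fibroblasts. Lsamp was higher by 1.22 (0.85 to 1.60), against -0.04 in the other fibroblasts, and by 0.92 in members with no endothelial gene. In marker-free members the ratios were 2.14 for Rbp4, 1.42 for Timp1, 1.45 for Lsamp and 0.09 for Tgfbi (in the other fibroblasts under that filter 1.25, 0.13, 1.0 and 0.98), and Emilin1 and Ltbp2 had 5 UMIs or fewer. None of the 16 collagen genes was called, and their median was 0.34.

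Chemokines went in both directions. Ccl2, a monocyte attractant, stood at 57.55 and 197.6 CPM in members, a ratio of 1.78, which was 1.80 in the other fibroblasts and 1.77 in all other barcodes. In marker-free members it came to 6 UMIs in WT and 0 in EC-iCD45KO. Ccl7 (1.28) and Cxcl2 (1.68) were called higher too, as was Lcn2, while Cxcl9, Cxcl10 and Ccl11 were called lower, 4 higher and 3 lower of 18. In marker-free members Ccl7 had a ratio of -1.83 (24 and 3 UMIs), Cxcl2 of 0.88 and Lcn2 of -2.0, while the other fibroblasts under that filter had 1.81 for Ccl2, 2.67 for Ccl7, 3.47 for Cxcl2 and 1.62 for Lcn2. Macrophage RNA moved in the same direction. Lyz2, a macrophage gene, went from 906.8 to 2116 CPM in the same members and Il1b from 61.39 to 217.2 CPM. In marker-free members Il1b had a ratio of -0.42 and Lyz2 of -0.38. Lyz2 is on the macrophage list that this filter uses, so its level there follows in part from the filter. The part of macrophage RNA in the chemokine ratios was not tested.

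Cxcl12, a retention factor for leukocytes and stem cells (chr6:117168535-117181367), was the most abundant gene called lower among the lists. It stood at 1302 CPM in 351 WT members and at 645.8 CPM in 166 EC-iCD45KO members, a ratio of -1.01 (-1.14 to -0.88), against -0.05 in the Saa3 and Sfrp4 fibroblasts and 0.36 in all other barcodes. The eosinophil attractant Ccl11 (101.7 and 45.99 CPM, -1.15), the interferon-induced Cxcl10 (86.33 and 40.12 CPM, -1.11) and Sfrp1, a secreted Wnt antagonist (162.4 and 57.73 CPM, -1.49), were lower in members and had ratios of 0.14, 0.31 and 0.84 in the other fibroblasts. In all other barcodes Sfrp1 had a ratio of -1.02. In marker-free members Cxcl12 had -1.33 and Ccl11 -0.22, and Sfrp1 came to 59 and 2 UMIs and Cxcl10 to 11 and 0. In the other fibroblasts under that filter the ratio was -0.54 (-0.73 to -0.34) for Cxcl12, -0.21 for Ccl11, -0.42 for Cxcl10 (5 and 9 UMIs) and 1.78 (0.29 to 3.74) for Sfrp1. For Cxcl9, 32 of the 48 WT UMIs came from 1 barcode. C3, the central complement factor, went from 1640 to 950.1 CPM (-0.79), which is under the 2-fold limit, and had 0.77 in the other fibroblasts. With the marker-free filter C3 had -1.02 in members and -0.18 in the other fibroblasts (-0.34 to -0.01).

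Col6a5, a chain of the collagen VI family (chr9:105856078-105960643), was found in 100 WT and 8 EC-iCD45KO members, at 193.8 and 23.48 CPM, a ratio of -3.04 (-3.71 to -2.44). The Saa3 and Sfrp4 fibroblasts had a ratio of 0.55, and after thinning 7.84% and 10.2% of them carried it, against 11.3% and 1.76% of members. In marker-free members it came to 59 UMIs in WT and none in EC-iCD45KO, where a count of 0 allows 3 UMIs. Under the same filter the Saa3 and Sfrp4 fibroblasts had 42 and 63 Col6a5 UMIs (305.6 and 190.7 CPM), a ratio of -0.68 (-1.27 to -0.08), so the opposite sign was not seen there. The WT members with Col6a5 had more Aldh1a2, a retinoic acid synthase, by 3.10, more C3 by 1.80 (3733 and 1075 CPM) and more Cxcl12 by 1.50 (2655 and 937.0 CPM) than the 462 without. Among members without Col6a5, Cxcl12 stood at 937.0 CPM in WT and 612.5 CPM in EC-iCD45KO. Members with and without were compared because of these values and also differed in depth, with medians of 2869 and 1834 UMIs.

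**Figure D4:**
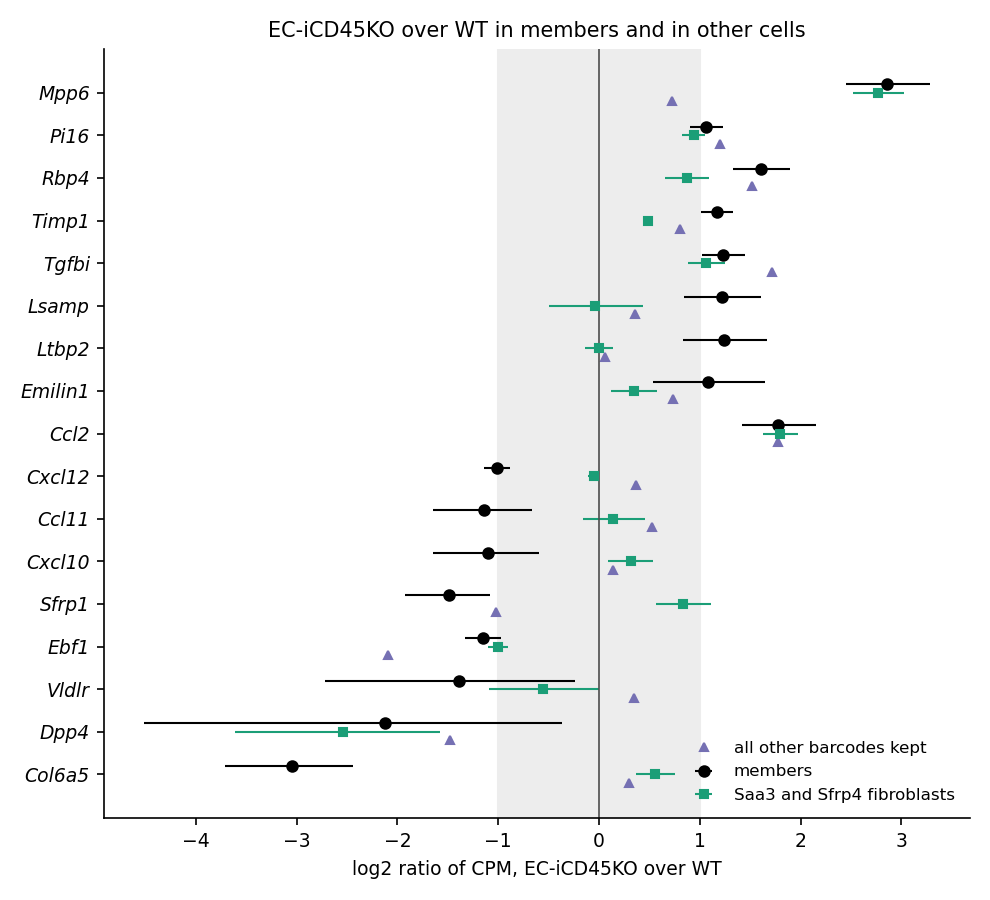
Log2 ratio of EC-iCD45KO over WT (horizontal axis) for selected genes in members (black), Saa3 and Sfrp4 fibroblasts (green squares) and all other barcodes (purple triangles), with exact 95% counting intervals. Mpp6 and Ccl2 lie alike in both kinds of fibroblast (2.86 and 2.77, 1.78 and 1.80), while Cxcl12, Sfrp1 and Col6a5 differ between them (-1.01 and -0.05, -1.49 and 0.84, -3.04 and 0.55); these differences were not tested. With the marker-free filter the other fibroblasts had -0.54 for Cxcl12, 1.78 for Sfrp1 and -0.68 for Col6a5. Under that filter Ccl2 had 1.81 in the other fibroblasts but 6 and 0 UMIs in members.

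Other genes lower in EC-iCD45KO members also moved outside them. Ebf1, a transcription factor of fibroblasts and B cells, went from 762.3 to 343.4 CPM (-1.15), with 511.2 and 255.5 CPM in the other fibroblasts and ratios of -3.34 in macrophage barcodes and -0.78 in marker-free members (0.11 in the other fibroblasts under that filter). Cd79a, a B cell receptor gene, went from 370.3 to 45.99 CPM (-3.01). Its 1 and 0 UMIs in marker-free members follow from that filter, which uses the list that holds Cd79a. Pttg1, the mitotic regulator securin, went from 122 to 8 barcodes (-3.84), with -2.31 in the other fibroblasts and -1.45 in all other barcodes. Of 19 interferon response genes Ifit1 and Gbp7 were called lower, with a median of -0.39 that stood at -0.45 in the other fibroblasts and -0.33 in all other barcodes. Of 10 B and plasma genes 7 were called lower and Igha higher, and of 9 T and NK genes 8 were called lower.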

How the data were processed

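Single-cell RNA-seq was analysed in 2 libraries, 1 per group. The authors deposited whole-number UMI counts per gene and barcode, made with Cell Ranger 7.1.0 on mm10 per the submitters' processing notes. Intron counting, cell calling and pooling of animals are not given in the sources used here. The deposited matrices held 39849 (WT) and 30278 (EC-iCD45KO) barcodes with 92058043 and 88967918 counts. The members and gene lists were chosen with earlier results of these data known.

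Counts were summed over the barcodes of a kind and scaled to CPM. Ratios carry exact conditional binomial intervals, levels exact Poisson and shares Clopper-Pearson intervals at 95%. A gene was called at 2-fold or more with the interval clear of 0. Between libraries its mean over the 2 profiles had to reach 5 CPM. Against other cells the higher of the 2 profiles had to reach 5 CPM in both libraries. Intervals are not adjusted for the number of genes, and PCR and droplet sampling beyond counting are not in them. No p-value was computed, since 1 library per group leaves no replicates.

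Genes were named by rule, above 50 CPM and outside the rule, sex-linked and immune receptor genes: the 12 largest differences each way between libraries, the 6 each way farthest from the ratio of other barcodes, the 15 each way against Saa3 and Sfrp4 fibroblasts, the 15 highest against other barcodes, and list members; other genes in the text were picked after their values were seen. No doublet caller was run: members with 2 or more marker genes of another cell type, or above 5000 UMIs, were left out as alternatives instead. Macrophage, endothelial and smooth muscle barcodes had at least 3 markers of their own list and at most 1 of each other gate. Positions are from GENCODE M21, which matched 32158 of 32285 identifiers; promoters are from RefSeq and matched 19 of 20 genes. TMM factors came from edgeR 4.0.16 (R 4.3.3), intervals from scipy 1.17.1 under Python 3.11.15 with pandas 2.3.3 and numpy 2.4.6, and figures from matplotlib 3.10.9. The interval code was tested on simulated data. The result of 1 gene is not reported here.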

Additional observations from a re-analysis of the deposited data

Results flagged for a closer look

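Among the genes of the lists and those named that averaged 50 CPM or more in members and were called between libraries, 9 had a ratio of the opposite sign in the Saa3 and Sfrp4 fibroblasts with a counting interval clear of 0. Genes under the 2-fold limit in members were not considered. The difference between the ratios was not tested, since each group had 1 library. Stromal genes of the report were among them: Col6a5 had -3.04 in members and 0.55 in the other fibroblasts, Sfrp1 -1.49 and 0.84, and Cxcl10 -1.11 and 0.31. Rgs5, a pericyte gene, had 1.87 and -0.30. With only marker-free barcodes of both kinds, Sfrp1 had -3.71 in members and 1.78 in the other fibroblasts, but the other fibroblasts had -0.68 for Col6a5 (42 and 63 UMIs), -0.42 for Cxcl10 (5 and 9 UMIs) and 0.96 for Rgs5 (3 and 14 UMIs), no longer opposite to the members.

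For the other 5, 1 barcode held a large part of the UMIs in members. Igha had 1.91 and -1.49, and 435 of its 593 EC-iCD45KO UMIs came from 1 member. Thbs1 had 2.25 and -0.43, with 88 of 180 UMIs from 1 member. The haemoglobin genes Hbb-bs (-1.89 and 1.0), Hba-a1 (-2.03 and 1.31) and Hba-a2 (-2.64 and 1.20) each had most of their WT UMIs in 1 barcode, 305 of 448 for Hbb-bs. Without the top barcode of each gene these 3 haemoglobin genes were still called lower in members, and Igha was no longer called higher.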

How the results depend on the processing

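No paired analysis was possible because there was only a single library in every group. Under 8 other settings of the filters and the rule the share of all barcodes kept its direction, while that of the gate went from -0.79 to -1.02 with at least 4 gate genes and -1.19 in marker-free members.

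In marker-free members, genes called between libraries numbered 156 higher and 109 lower, against the other fibroblasts 40 and 26, and against all other barcodes 606 higher, with 18 of the 100 and 9 of the 74 calls against the other fibroblasts kept. With the mean of single-cell CPM the library calls were 572 and 758, the higher calls against the other fibroblasts 53 and the lower calls against all other barcodes 218. With at least 2 C7-set genes the calls against the other fibroblasts were 157 and 134. Without barcodes above 5000 UMIs they were 38 and 18, and lower calls against all other barcodes 234. Without the top barcode of each gene they were 50 and 116. The cause of these shifts was not tested.

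The Pi16 share difference of 19.8 points was 26.9 without thinning, 27.1 with no endothelial gene and 33.1 in marker-free members. That of Ptprc, -11.4, was -19.7 at 2000 UMIs, -20.6 without thinning and -1.72 in marker-free members. Of the genes named for their library ratio, 6 had a ratio on the other side of 0 in marker-free members, Aff3 (0.30), Ccl6 (-1.83), Hba-a2 (1.17), Il1b (-0.42), Lcn2 (-2.0) and Ptprc (0.85). With 1 to 11 UMIs per library the intervals of these 6 span 0. Genes with a count of 0 and an interval that spans 0 gave no ratio and are not counted. Ccl2 is such a gene, with 6 and 0 UMIs in marker-free members, although it was called higher over all members. Other genes of the report turned with an interval clear of 0: Ccl7 (from 1.28 to -1.83), Hp (0.41 to -1.89), Mmp3 (0.43 to -0.35) and Svep1 (0.03 to -1.15), of which only Ccl7 had been called. Against the other fibroblasts Chil1 (0.040) and Slurp1 (0.37) reversed in WT with no endothelial gene, and Slurp1 in WT (3.35) and Ren1 in EC-iCD45KO (-0.40) without barcodes above 5000 UMIs. For the named genes, 675 recomputed values between libraries kept direction and call or, for genes not called, stayed within the first interval. For genes not called the direction was not checked. Another 19 values lost the call, 19 gained it and 38 left that interval. Against the other fibroblasts 734 kept direction and call and 30 lost the call. Of the recomputed list medians 405 stayed within 0.25 and 70 did not. The alternatives on Saa3, deep barcodes and top barcodes were chosen after seeing the data. The marker-free values rest on 184683 and 82086 UMIs, which limits them.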

Other observations

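Ibsp, the bone matrix protein bone sialoprotein, was found in 63 WT and 3 EC-iCD45KO members (330.6 and 3.91 CPM). It was also lower in EC-iCD45KO outside the members, with log2 ratios of -1.04 in the Saa3 and Sfrp4 fibroblasts, -2.96 in all other barcodes, -6.28 in endothelial, -4.88 in smooth muscle and -4.25 in macrophage barcodes. The 63 had more Col2a1 (116.9 and 3.04 CPM), a cartilage collagen, and Spp1 (4059 and 1333 CPM) than the other 499 WT members, and less Gsn (1975 and 4407 CPM), Abca8a (40.3 and 239.4 CPM) and Hsd11b1 (24.2 and 206.7 CPM). Of 5 chondrocyte genes measured, Acan, Col2a1 and Chad were called lower in EC-iCD45KO members, where each had 0 UMIs, and a count of 0 allows 3. The other 2 went the other way, Comp from 207.2 to 345.4 CPM and Cytl1 from 293.5 to 417.8 CPM, and the summed list stood at 562.8 and 768.1 CPM.

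Ren1, the gene of renin, stood at 58.19 CPM in 15 WT members and 467.7 CPM in 20 EC-iCD45KO members, with 60 of 91 and 221 of 478 UMIs in 1 barcode of each library. In marker-free members it came to 68 and 104 UMIs, and without barcodes above 5000 UMIs the ratio between libraries was 0.61.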
